A study of Mus musculus with 8 samples.

Results

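The 9 genes described here encode enzymes that break down or rebuild neutral lipids, and they were chosen by gene symbol from the 16160 genes of a table of read counts. *Lipg* was put forward because of its level in CD115- cells of EL4 tumor-bearing (TB) mice, and *Mogat2* because of its difference between the naive subsets, so those values are given as a description with no test. The other 7 (*Lpl*, *Lipa*, *Pnpla2*, *Lipe*, *Mgll*, *Dgat1* and *Dgat2*) were listed by the reaction they catalyze, but with earlier results of these data known. The same holds for the gene lists used below. Tests and counts of these genes are therefore not fully independent of how they were chosen. The libraries came from bone marrow (BM) monocytic cells, sorted as CD11c-CD11b+Ly6G-SiglecF-Ly6Chi and separated by CD115, the M-CSF receptor. All mice were wild type and of strain C57BL/6, and the study's methods describe young animals, males or females. CD115- and CD115+ monocytic myeloid-derived suppressor cells (M-MDSCs) of mice carrying a subcutaneous EL4 tumor, a mouse T cell lymphoma line, were taken at day 21 after inoculation and are written tCD115- and tCD115+. The monocytes of tumor-free mice are written nCD115- and nCD115+ after the same division. Each of the 4 groups has 2 libraries, called biological replicates by the study. The sources used here do not say whether cells of several mice were pooled. The p-values use the spread between libraries of a group, estimated over all 4 groups together and with information from the other genes. They do not rest on the 2 libraries of a group alone, and whether they cover the spread between mice is not known. EL4 was the only tumor among the libraries analysed here.

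Triglyceride in lipid droplets is taken apart in steps. *Pnpla2* encodes adipose triglyceride lipase, which removes the first fatty acid, *Lipe* encodes hormone-sensitive lipase, which acts on the resulting diglyceride, and *Mgll* encodes monoglyceride lipase, which releases the last fatty acid and also degrades the monoglyceride endocannabinoid. *Mogat2* encodes an acyltransferase that turns monoglyceride back into diglyceride and is best known from fat absorption in the intestine, while *Dgat1* and *Dgat2* encode the enzymes that add the final fatty acid. Outside the cell, *Lipg* encodes endothelial lipase, mainly a phospholipase of high-density lipoproteins, and *Lpl* encodes lipoprotein lipase, which hydrolyzes the triglyceride of circulating lipoproteins and is also made by macrophages. *Lipa* encodes lysosomal acid lipase, which hydrolyzes cholesteryl esters and triglyceride of engulfed lipid.

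Library totals ranged from 69692398 to 95353798 reads, so that 1 read was worth 0.0101 to 0.0138 CPM (read counts scaled to library size). *Csf1r*, which encodes CD115, had 283 and 490 CPM in tCD115- and 891 and 869 CPM in tCD115+ cells, and 825 and 728 CPM for nCD115- against 1159 and 1333 CPM for nCD115+ cells, so its mRNA followed the sort in both hosts. The summed level of 13 neutrophil markers differed far more, at 117131 and 72066 CPM in tCD115- against 2990 and 2434 CPM in tCD115+ cells, and 50408 and 65690 CPM in nCD115- cells against 1575 and 1391 CPM in nCD115+ cells. They are called granule markers below, but *S100a8*, *S100a9*, *Cxcr2* and *Ly6g* among them do not encode granule proteins. In tCD115- replicate 1, *S100a8* and *S100a9* alone had 22647 and 35325 CPM. Of the 13 genes, 12 were called higher in tCD115- and 11 in nCD115- cells. The granule gene *Mmp8* went the other way in TB mice, with 161 and 219 CPM in tCD115- against 333 and 276 CPM in tCD115+ cells. The sum of 9 monocyte markers was 4939 and 8791 CPM in tCD115- against 15843 and 14539 CPM in tCD115+ cells, and 11959 and 11646 CPM in nCD115- cells against 15968 and 19222 CPM in nCD115+ cells. In bulk libraries, fewer cells of a type and less RNA per cell cannot be told apart. Smaller sums moved with CD115 too, that of 8 T and NK cell genes (74.8 to 112 CPM in tCD115- against 6.15 to 6.20 CPM in tCD115+ cells, and 51.5 to 62.8 CPM in nCD115- cells against 5.63 to 7.30 CPM in nCD115+ cells) and that of 7 basophil and mast cell genes (123 to 158 CPM in tCD115- against 5.32 to 6.44 CPM in tCD115+ cells, and 77.7 to 109 CPM in nCD115- cells against 11.7 to 12.97 CPM in nCD115+ cells). Most of the basophil and mast cell sum was *Hdc*, with 150 and 118 CPM in tCD115- against 2.54 and 1.88 CPM in tCD115+ cells, and 2 of the 7 genes were called higher in either host. The sum of 6 megakaryocyte genes (5.62 to 14.7 CPM in tCD115- against 0.697 to 0.702 CPM in tCD115+ cells, and 11.5 to 12.1 CPM in nCD115- cells against 1.15 to 1.26 CPM in nCD115+ cells) and that of 6 eosinophil genes (7.77 to 12.1 CPM in tCD115- against 1.68 to 2.16 CPM in tCD115+ cells, and 6.67 to 8.77 CPM in nCD115- cells against 1.504 to 1.552 CPM in nCD115+ cells) were higher in CD115- cells as well. Their part in the results below was not tested. Adipocyte markers, of which 6 of 8 were measured, summed to 0.212 to 0.821 CPM over the 8 libraries, and *Adipoq* had 0 reads in both tCD115- libraries. The enzymes of fat cells were therefore measured in libraries nearly without adipocyte markers.

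Of the 9 genes, 8 followed 3 patterns. *Lipg*, *Mgll*, *Mogat2*, *Dgat1* and *Dgat2* were higher in the CD115- than in the CD115+ subset of both hosts, *Lpl* was lower in TB than in naive mice whichever the subset, and *Pnpla2* and *Lipe* differed little over all 8 libraries. *Lipa*, the remaining gene, passed in no comparison. To be called, a gene had to change at least 2-fold with an adjusted p under 0.05 (edgeR's quasi-likelihood test, Benjamini-Hochberg over 13211 genes).

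**Figure D1:**
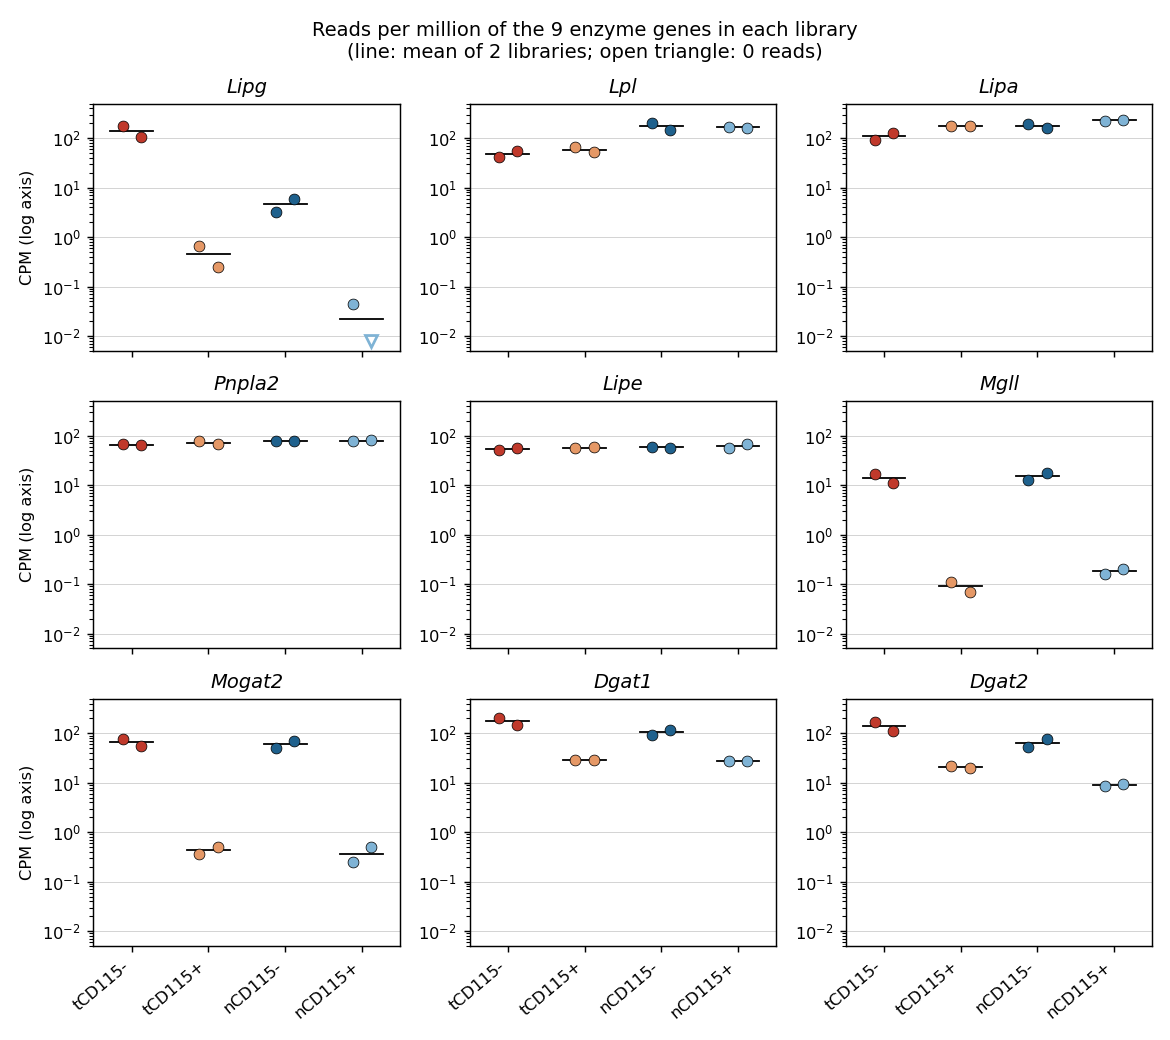
CPM (reads scaled to library size, log axis) of each enzyme gene in the 8 libraries, with the mean of the 2 libraries of a group as a line and 0 reads as an open triangle. *Lipg* spans from 175 CPM in a tCD115- library to 0 reads in an nCD115+ library, while the 8 *Pnpla2* points lie between 65.1 and 81.5 CPM.

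Among the lipases that act on lipoproteins, *Lipg* (gene ID 16891, chromosome 18 of GRCm38, 74939322 to 74961263, minus strand) had the widest span of the 9 genes. It had 175 and 108 CPM in tCD115- cells, from 14781 and 9663 reads, against 0.667 and 0.248 CPM in tCD115+ cells, from 66 and 18 reads. In naive mice it had 3.26 and 5.98 CPM in nCD115- cells, from 291 and 499 reads, against 0.0450 CPM and 0 in nCD115+ cells, from 4 and 0 reads. The libraries of the 4 groups did not overlap, and the order was tCD115-, nCD115-, tCD115+, nCD115+. The mean over 2 libraries was 309-fold higher in tCD115- than in tCD115+ cells (log2 fold change 8.20, SE 0.53) and 30.6-fold higher in tCD115- than in nCD115- cells (log2 fold change 4.94, SE 0.43). Both are descriptions, since these values put the gene on the list.

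The comparison of the naive subsets was not among those that chose *Lipg*, but it shares the nCD115- libraries with one that was. There *Lipg* rose in nCD115- cells with a log2 fold change of 7.66 (SE 0.82, edgeR adjusted p = 0.000832), a test not independent of the choice. The 790 reads of nCD115- against the 4 reads of nCD115+ cells give a ratio of 214 with a 95% counting interval of 83.1 to 786, which covers counting error only. Because of these 4 reads, the log2 fold change was 6.64 without nCD115+ replicate 2 and 11.67 without nCD115+ replicate 1, which leaves 0 reads in that group. With limma-voom the call was lost (log2 fold change 8.13, adjusted p = 0.0528). Between tCD115+ and nCD115+ cells the log2 fold change of *Lipg* was 4.39 (SE 1.17) and was not called (edgeR adjusted p = 0.0551), and the 84 reads against 4 reads give a ratio of 22.8 (95% counting interval 8.59 to 85.8). DESeq2 called it (log2 fold change 4.37, adjusted p = 0.00101), as did edgeR on the 4 libraries alone (log2 fold change 4.32, adjusted p = 0.0119). The tCD115+ libraries were part of a comparison that chose *Lipg*, so these tests are not independent of the choice either.

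The name of *Lipg* refers to endothelial cells, so endothelial markers were read beside it. The sum of 8 measured endothelial markers was 24.8 to 30.1 CPM in tCD115- against 28.1 to 28.2 CPM in tCD115+ cells, and 18.1 to 21.2 CPM in nCD115- cells against 21.1 to 24.9 CPM in nCD115+ cells. Most of this sum was *Pecam1*, which leukocytes also express, with 24.6 and 21.5 CPM in tCD115- against 26.4 and 26.1 CPM in tCD115+ cells. Of the 5 markers tested, 1 was called higher in the CD115- subset of each host. *Tie1*, an endothelial receptor gene, had 2.08 and 1.302 CPM in tCD115- against 0.283 and 0.440 CPM in tCD115+ cells, and 1.71 and 1.93 CPM in nCD115- cells against 0.843 and 0.368 CPM in nCD115+ cells, so its subsets did not overlap. For *Egfl7* the subsets did not overlap either, with 2.99 and 1.47 CPM in tCD115- against 1.26 and 1.27 CPM in tCD115+ cells. In naive mice it had 1.13 CPM in both nCD115- libraries against 0.709 and 0.614 CPM in nCD115+ cells. *Kdr* had 20 and 16 reads in tCD115- against 6 and 8 reads in tCD115+ cells, and its naive subsets overlapped. The defining gene *Cdh5*, vascular endothelial cadherin, had 11 and 32 reads in tCD115- against 5 and 17 reads in tCD115+ cells, and *Robo4* had 0 reads in these 4 libraries. The part of endothelial cells in the *Lipg* level was not tested.

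*Lpl* (gene ID 16956, chromosome 8, 68880555 to 68906932, plus strand) was called between hosts in both subsets, and between subsets in neither host. It had 42.7 and 55.1 CPM in tCD115- against 206 and 146 CPM in nCD115- cells. In the other subset it had 66.0 and 51.7 CPM in tCD115+ against 172 and 158 CPM in nCD115+ cells. Every TB library lay below every naive library. *Lpl* fell 3.61-fold in tCD115- relative to nCD115- cells (log2 fold change -1.85, SE 0.20, edgeR adjusted p = 0.00584) and 2.81-fold in tCD115+ relative to nCD115+ cells (log2 fold change -1.49, SE 0.20, edgeR adjusted p = 0.0107). The first call was lost with edgeR on the 4 libraries compared (log2 fold change -1.85, adjusted p = 0.0531), and the second without any one of its 4 libraries (log2 fold changes -1.68 to -1.32, edgeR adjusted p = 0.0573 to 0.0882). Between the subsets its log2 fold change was -0.27 (SE 0.19) in TB and 0.09 (SE 0.19) in naive mice, and neither was called (edgeR adjusted p = 0.312 and 0.772). Summed markers of other cells were lower in TB mice too. The sum of 8 dendritic cell markers, mostly antigen presentation genes, was 106 to 128 CPM in tCD115- against 273 to 366 CPM in nCD115- cells and 130 to 175 CPM in tCD115+ against 523 to 547 CPM in nCD115+ cells, with 6 of the 8 called lower in either comparison. That of 7 B cell markers was 9.06 to 13.6 CPM in tCD115- against 23.4 to 27.8 CPM in nCD115- cells and 10.5 to 13.9 CPM in tCD115+ against 26.2 to 27.03 CPM in nCD115+ cells, with 3 of the 7 called lower in either comparison. Macrophage markers, 10 in all, summed to 200 to 234 CPM in tCD115- against 339 to 352 CPM in nCD115- cells. They summed to 250 to 261 CPM in tCD115+ against 327 to 379 CPM in nCD115+ cells. Of the 10, 2 were called lower in the CD115- and 1 in the CD115+ comparison, and 0 higher. Not every one of them fell. *C1qb* had 3.58 and 1.61 CPM in tCD115- against 1.60 and 1.13 CPM in nCD115- cells. *C1qa* had 0.950 and 0.536 CPM in tCD115+ against 0.495 and 0.307 CPM in nCD115+ cells. The part of all these cells in the *Lpl* level was not tested.

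Per length, the balance of both lipases differed between the groups. In the authors' FPKM values (fragments scaled to gene length and library size), the *Lipg* level was 4.40 and 2.09 times that of *Lpl* in the tCD115- libraries, against 0.0108 and 0.00512 times in tCD115+ libraries. In naive mice it was 0.0169 and 0.0437 times that of *Lpl* in nCD115- libraries, against 0.000278 and 0 times in nCD115+ libraries. Only in the 2 tCD115- libraries of these 8 was *Lipg* above *Lpl*. This ratio contains the *Lipg* values that chose the gene and was not tested.

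In the lysosomal step, *Lipa* (gene ID 16889, chromosome 19, 34492316 to 34527474, minus strand) had 93.1 and 128 CPM in tCD115- against 181 and 178 CPM in tCD115+ cells. In naive mice it had 195 and 163 CPM in nCD115- cells against 223 and 237 CPM in nCD115+ cells. The CD115- libraries lay below the CD115+ libraries in both hosts. The log2 fold change was -0.70 (SE 0.15, edgeR adjusted p = 0.0103) in TB mice and -0.36 (SE 0.15, edgeR adjusted p = 0.141) in naive mice, and that of tCD115- over nCD115- was -0.70 (SE 0.15, edgeR adjusted p = 0.0341), all below the 2-fold threshold. *Lipa* was among the 4 of the 9 genes with a start in the RefSeq promoter table (GRCm38.p6, 250 bases before to 50 after a start). Its promoter, chr19:34527425-34527724 on the minus strand, is shown with its one match to the letters GAGGAAG, the core of PU.1 sites, in capitals, which starts 183 bases before the transcription start.

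Lipa: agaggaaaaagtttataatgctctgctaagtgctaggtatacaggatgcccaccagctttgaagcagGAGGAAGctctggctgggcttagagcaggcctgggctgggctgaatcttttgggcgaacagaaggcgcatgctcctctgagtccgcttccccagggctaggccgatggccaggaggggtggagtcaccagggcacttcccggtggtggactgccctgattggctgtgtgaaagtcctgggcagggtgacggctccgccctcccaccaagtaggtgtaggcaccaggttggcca

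The first and the middle step of lipolysis in the cytosol were flat. *Pnpla2* (gene ID 66853, chromosome 7, 141455188 to 141460743, plus strand) had 67.2 and 65.1 CPM in tCD115- against 76.6 and 66.8 CPM in tCD115+ cells, and 78.5 and 76.6 CPM in nCD115- cells against 78.5 and 81.5 CPM in nCD115+ cells. *Lipe* (gene ID 16890, chromosome 7, 25379527 to 25398486, minus strand) had 52.7 and 56.7 CPM in tCD115- against 56.1 and 59.3 CPM in tCD115+ cells, and 60.5 and 57.4 CPM in nCD115- cells against 55.5 and 67.8 CPM in nCD115+ cells. Their highest group mean was 1.21 times the lowest for *Pnpla2* and 1.13 times for *Lipe*. Over the 4 comparisons the log2 fold changes were -0.23 to -0.04 for *Pnpla2* and -0.11 to -0.06 for *Lipe*, and none was called, with edgeR adjusted p = 0.114 as the lowest, for *Pnpla2* between tCD115- and nCD115- cells. An antisense gene, *4732471J01Rik*, shares 918 exon bases with *Lipe*. The kit keeps strand, but no source used here says whether the counting did, and if not, reads of both cannot be told apart. Their promoters are shown because they belong to the genes that hardly moved, Pnpla2 at chr7:141454938-141455237 on the plus strand and Lipe at one of its 2 RefSeq starts, chr7:25395938-25396237 on the minus strand. The other Lipe start, not shown, has one match to GAGGAAG, 198 bases before it. In the Lipe promoter the one match to TCACGTG, the letters bound by TFEB and related factors, is in capitals as it reads on the other strand, 155 bases before the start.

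Pnpla2: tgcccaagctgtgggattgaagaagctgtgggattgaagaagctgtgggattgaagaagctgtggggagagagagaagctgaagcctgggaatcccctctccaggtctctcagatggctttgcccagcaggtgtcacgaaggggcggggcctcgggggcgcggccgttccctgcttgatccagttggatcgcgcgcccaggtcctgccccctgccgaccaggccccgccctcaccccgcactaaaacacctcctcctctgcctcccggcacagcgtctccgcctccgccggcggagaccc
Lipe: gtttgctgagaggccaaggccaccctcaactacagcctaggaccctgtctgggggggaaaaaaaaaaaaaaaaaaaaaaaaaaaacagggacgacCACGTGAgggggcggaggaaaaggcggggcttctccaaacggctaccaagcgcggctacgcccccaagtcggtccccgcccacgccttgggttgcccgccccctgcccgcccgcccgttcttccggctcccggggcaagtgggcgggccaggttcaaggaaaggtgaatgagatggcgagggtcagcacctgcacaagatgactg

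The last step of lipolysis was not flat. *Mgll* (gene ID 23945, chromosome 6, 88724412 to 88828360, plus strand) had 16.5 and 11.2 CPM in tCD115- cells, from 1392 and 1003 reads, against 0.111 and 0.0688 CPM in tCD115+ cells, from 11 and 5 reads. It had 12.5 and 18.0 CPM in nCD115- cells, from 1112 and 1499 reads, against 0.157 and 0.205 CPM in nCD115+ cells, from 14 and 20 reads. All 4 CD115- libraries lay above all 4 CD115+ libraries. *Mgll* rose in tCD115- relative to tCD115+ cells with a log2 fold change of 7.20 (SE 0.38, edgeR adjusted p = 2.39e-05) and in nCD115- relative to nCD115+ cells with one of 6.38 (SE 0.34, edgeR adjusted p = 3.45e-05). The read sums give ratios of 148 (95% counting interval 90.7 to 259) in TB mice and 83.0 (95% counting interval 59.3 to 120) in naive mice. Between hosts the log2 fold change was -0.14 (SE 0.24) in CD115- cells and -0.96 (SE 0.54) in CD115+ cells, where 16 reads in tCD115+ stood against 34 in nCD115+ cells, and neither was called (edgeR adjusted p = 0.725 and 0.279). An antisense gene, *Gm26588*, shares 167 exon bases with *Mgll*. Its promoter at the outer of its RefSeq starts, chr6:88724162-88724461 on the plus strand, is shown as that of the lipolysis gene that followed CD115.

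Mgll: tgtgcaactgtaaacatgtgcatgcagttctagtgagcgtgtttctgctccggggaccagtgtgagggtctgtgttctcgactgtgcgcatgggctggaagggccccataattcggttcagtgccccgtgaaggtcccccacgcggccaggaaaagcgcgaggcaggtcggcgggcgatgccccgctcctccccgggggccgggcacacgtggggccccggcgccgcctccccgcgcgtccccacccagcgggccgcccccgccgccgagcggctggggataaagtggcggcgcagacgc

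The letters searched on both strands were TTGCNNAA (C/EBP), GAGGAAG (PU.1), a direct repeat of AGGTCA spaced by 1 base (PPAR) and TCACGTG (TFEB). Of 32851 promoters of this length in the table, 10.8%, 13.6%, 0.0396% and 3.77% hold them, in that order. Neither the Mgll nor the Pnpla2 promoter holds any of these letters in this window, and the matches in Lipa and Lipe are a description of sequence only.

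All 3 genes of resynthesis were higher in CD115- cells. *Mogat2* (gene ID 233549, chromosome 7, 99219084 to 99238611, minus strand) had 75.8 and 55.5 CPM in tCD115- cells, from 6392 and 4984 reads, against 0.364 and 0.509 CPM in tCD115+ cells, from 36 and 37 reads. In naive mice it had 51.0 and 68.3 CPM in nCD115- cells, from 4548 and 5698 reads, against 0.247 and 0.491 CPM in nCD115+ cells, from 22 and 48 reads. The subsets were far apart and the hosts overlapped within each subset. *Mogat2* rose in tCD115- cells with a log2 fold change of 7.25 (SE 0.33, edgeR adjusted p = 1.66e-05). The naive difference, 7.31 on the log2 scale (SE 0.33), was known when the gene was listed and stands as a description. Between hosts its log2 fold change was 0.14 (SE 0.22) in CD115- cells and 0.20 (SE 0.42) in CD115+ cells, and neither was called (edgeR adjusted p = 0.708 and 0.797). An antisense gene, *Gm45012*, shares 55 exon bases with it.

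*Dgat1* (gene ID 13350, chromosome 15, 76502012 to 76512021, minus strand) had 205 and 146 CPM in tCD115- against 29.4 and 28.3 CPM in tCD115+ cells. In naive mice it had 93.1 and 115 CPM in nCD115- cells against 27.6 and 27.8 CPM in nCD115+ cells. It rose 6.09-fold in tCD115- cells (log2 fold change 2.61, SE 0.17, edgeR adjusted p = 6.07e-05) and 3.76-fold in nCD115- cells (log2 fold change 1.91, SE 0.17, edgeR adjusted p = 0.000311). Both tCD115- libraries lay above both nCD115- libraries, by 0.75 on the log2 scale (SE 0.16, edgeR adjusted p = 0.0333), under the fold threshold, whereas the CD115+ groups differed by 0.06 (SE 0.16, edgeR adjusted p = 0.850). The difference between the subset effects of both hosts was 0.69 on the log2 scale (SE 0.23, edgeR adjusted p = 0.841) and did not pass.

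*Dgat2* (gene ID 67800, chromosome 7, 99153663 to 99182713, minus strand) was called in all 4 comparisons. It had 166 and 114 CPM in tCD115- against 22.1 and 19.8 CPM in tCD115+ cells, and 51.9 and 77.3 CPM in nCD115- cells against 8.41 and 9.57 CPM in nCD115+ cells. The libraries of the 4 groups did not overlap. The rise in CD115- cells was 6.67-fold in TB mice (log2 fold change 2.74, SE 0.24, edgeR adjusted p = 0.00019) and 7.18-fold in naive mice (log2 fold change 2.84, SE 0.24, edgeR adjusted p = 0.000249). The rise in TB mice was 2.17-fold in CD115- cells (log2 fold change 1.12, SE 0.22, edgeR adjusted p = 0.0284) and 2.33-fold in CD115+ cells (log2 fold change 1.22, SE 0.23, edgeR adjusted p = 0.0234). The host calls were weak. That in CD115- cells was lost in 7 of 16 alternative analyses, among them tCD115- replicate 1 left out (log2 fold change 0.82, edgeR adjusted p = 0.106), nCD115- replicate 1 left out (log2 fold change 0.85, edgeR adjusted p = 0.183) and each of the 4 CD115+ libraries left out in turn (log2 fold change 1.11 each time, edgeR adjusted p = 0.057 to 0.0583), and that in CD115+ cells was lost without any one of its 4 libraries (log2 fold changes 1.13 to 1.32, edgeR adjusted p = 0.107 to 0.145).

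*Dgat2* and *Mogat2* belong to one acyltransferase family and are neighbors on the minus strand of chromosome 7, with a gap of 36.4 kb and 0 RefSeq genes between them. They differed in span all the same, as the lowest *Dgat2* level of the 8 libraries was 8.41 CPM and the lowest *Mogat2* level 0.247 CPM. Per length, the *Mogat2* level was 0.581 and 0.618 times that of *Dgat2* in tCD115- against 1.25 and 1.12 times in nCD115- libraries, and 0.0206 and 0.0321 times in tCD115+ against 0.0367 and 0.0652 times in nCD115+ libraries.

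**Figure D2:**
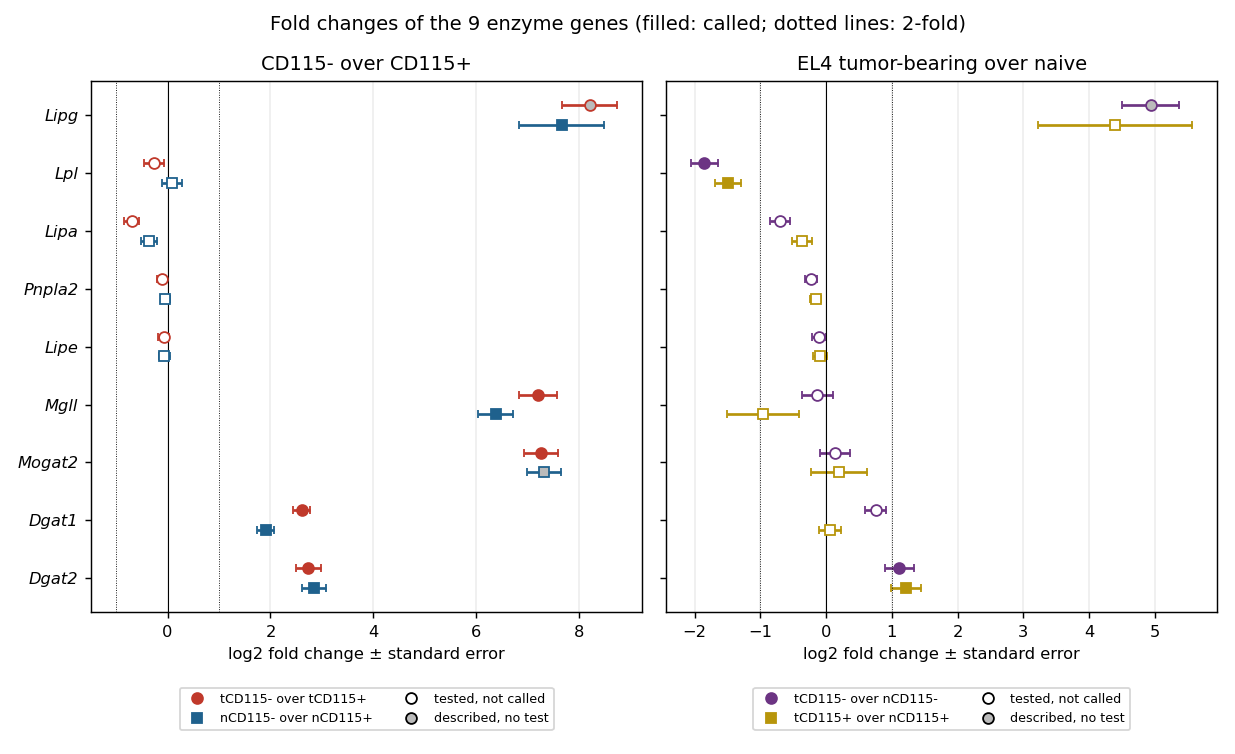
Log2 fold changes with standard errors from edgeR, of CD115- over CD115+ cells in each host (left) and of TB over naive mice in each subset (right). Filled symbols passed both thresholds, white ones did not, grey ones were not tested, and dotted lines mark a 2-fold change. Large subset effects are confined to *Lipg*, *Mgll*, *Mogat2*, *Dgat1* and *Dgat2* among these 9 genes, and *Lpl* lies below -1 only on the right.

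Counted together, 5 of the 9 genes passed both thresholds as higher in tCD115- than in tCD115+ cells and 0 as lower, where 8.36% of all genes tested were called higher and 3.97% lower (1105 and 525 genes, or 1010 and 840 with library totals alone as scaling). This count includes *Lipg*, whose value there chose it. Between the naive subsets 5 were higher and 0 lower, *Mogat2* included, against 5.73% and 0.484% of all genes. In tCD115- relative to nCD115- cells 2 were higher (*Lipg* and *Dgat2*) and 1 lower (*Lpl*), against 0.855% and 2.43% of all genes. Here too the *Lipg* value chose the gene, so its place in this count is no test. In tCD115+ relative to nCD115+ cells 1 was higher (*Dgat2*) and 1 lower (*Lpl*), against 0.939% and 1.66% of all genes. The median log2 fold changes of the 9 genes in these comparisons were 2.61, 1.91, -0.11 and -0.10, against -0.05, -0.01, 0.00 and 0.02 over all genes tested. Scaling by library totals alone shifted the all-gene median to -0.20 between the subsets of TB mice and to -0.12 between those of naive mice. Comparisons that share a group also share its libraries. The difference between the subset effects of TB and naive mice passed for 0 of the 9 genes and, in edgeR, for 0% of all genes, with 751 genes at an unadjusted p under 0.05, while DESeq2 called 56 genes higher and 12 lower.

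Within the CD115- groups, though not in all CD115+ libraries, the genes higher in CD115- cells were also higher in the library with more granule markers. In tCD115- cells, replicate 1 had 1.63 times the granule sum of replicate 2, and it also had more *Lipg* (1.63 times), *Mgll* (1.48 times), *Dgat2* (1.46 times), *Dgat1* (1.40 times) and *Mogat2* (1.37 times). In nCD115- cells, replicate 2 had 1.303 times the granule sum of replicate 1, and again more *Lipg* (1.84 times), *Dgat2* (1.49 times), *Mgll* (1.44 times), *Mogat2* (1.34 times) and *Dgat1* (1.24 times). In the same libraries *Lpl* was lower (0.774 times in tCD115- and 0.710 times in nCD115- cells), as was *Lipa* (0.728 and 0.839 times). In tCD115+ cells, replicate 1 had 1.23 times the granule sum of replicate 2, with more *Lipg* (2.69 times), *Mgll* (1.62 times), *Lpl* (1.28 times), *Dgat2* (1.11 times) and *Dgat1* (1.04 times) but less *Mogat2* (0.715 times). In nCD115+ cells, replicate 1 had 1.13 times the granule sum of replicate 2, with less *Mogat2* (0.504 times), *Mgll* (0.769 times), *Dgat2* (0.879 times) and *Dgat1* (0.992 times), and 4 reads of *Lipg* against 0. Of all 9 genes, 6 were higher in the library with more granule markers in tCD115-, 7 in tCD115+, 5 in nCD115- and 2 in nCD115+ cells. The same share over all genes was not counted, so these numbers describe the 9 genes only and show no trait particular to them. The part of cells rich in these neutrophil markers in the levels of these genes was not tested.

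Ordered per length, the 9 genes took a different order in each group. In tCD115- cells *Dgat1* led with 83.7 ± 16.8 FPKM (authors' values, mean ± SD, n = 2), before *Dgat2* with 57.4 ± 12.97 FPKM, and *Lipa* (34.6 ± 9.0), *Lipg* (34.4 ± 10.4) and *Mogat2* (34.2 ± 6.2) followed with overlapping libraries. Below them stood *Pnpla2* (23.2 ± 0.4), *Lipe* (15.8 ± 1.5), *Lpl* (11.2 ± 2.4) and *Mgll* (3.28 ± 0.81). In tCD115+ cells *Lipa* led with 61.8 ± 0.5 FPKM, before *Pnpla2* (27.7 ± 2.5), *Lipe* (18.4 ± 0.9), *Dgat1* (15.2 ± 0.4) and *Lpl* (14.9 ± 2.5), of which the last pair overlapped, and *Mogat2*, *Lipg* and *Mgll* were each below 1 FPKM in both libraries.

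In nCD115- cells the neighbors *Lipa* (57.6 ± 8.0 FPKM), *Dgat1* (51.3 ± 6.9), *Lpl* (41.7 ± 10.6), *Mogat2* (32.1 ± 6.1), *Pnpla2* (28.02 ± 0.86) and *Dgat2* (27.3 ± 7.2) overlapped each with the next, and *Lipg* was last with 1.16 ± 0.47 FPKM. In nCD115+ cells *Lipa* (79.9 ± 1.9) and *Lpl* (42.1 ± 3.3) stood first, and *Lipg* was last, at 0.0124 FPKM in one library and listed at 0 in the other. The leading genes were thus triglyceride-forming enzymes in tCD115- cells and lipases in both CD115+ groups. *Dgat1* exceeded *Dgat2* in every library, by 1.44 and 1.49 times in tCD115- against 2.09 and 1.73 times in nCD115- libraries, and by 1.55 and 1.66 times in tCD115+ against 3.82 and 3.38 times in nCD115+ libraries.

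**Figure D3:**
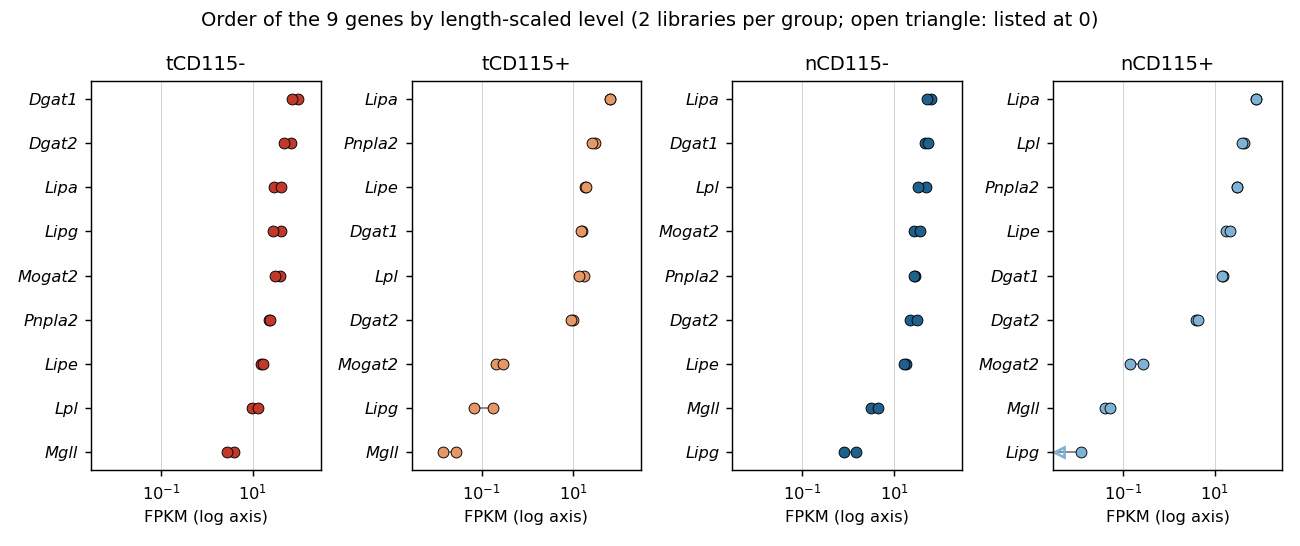
Level per length (authors' FPKM, log axis) of the 9 genes, in descending order of the mean within each group, 1 point per library and an open triangle where the gene is listed at 0. *Lipg* moves from the fourth place in tCD115- cells, at 34.4 FPKM, to the last in nCD115+ cells.

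The genes with the profile most like that of *Lipg* were found by the root mean square difference of log2 CPM, centered on the mean over the 8 libraries, among 9461 genes of at least 5 CPM on average. The closest were *AA467197* (1.45 log2 units), *Cxcr2* (1.79), *Slco4c1* (1.83), *Lcn2* (1.84) and *S100a9* (1.85). None came within 1 log2 unit. *AA467197* shared the order of the 4 groups, with a mean of 37.1 CPM in tCD115-, 8.46 CPM in nCD115-, 0.286 CPM in tCD115+ and 0.0736 CPM in nCD115+ cells. For *Mogat2* the closest were *Olfm4* (0.33 log2 units), *Tinagl1* (0.38), *Ltf* (0.38), *Ngp* (0.41) and *Itgb2l* (0.42). *Olfm4*, which encodes the granule glycoprotein olfactomedin, averaged 98.1 CPM in tCD115- against 0.675 CPM in tCD115+ cells and 78.8 CPM in nCD115- cells against 0.805 CPM in nCD115+ cells. These are descriptions over 8 libraries that share their groups.

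The other genes of the pathway came from 6 lists of 130 genes, of which 103 were tested. Of these 103 genes, 13 rose and 10 fell in tCD115- relative to tCD115+ cells (22.3% called, against 12.3% of all genes), and 10 rose and 0 fell in nCD115- relative to nCD115+ cells (9.71% called, against 6.21%). Between hosts, 1 rose and 8 fell in tCD115- relative to nCD115- cells (8.74% called, against 3.29%), and 2 rose and 4 fell in tCD115+ relative to nCD115+ cells (5.83% called, against 2.6%). The median log2 fold changes of the 103 genes were -0.21, -0.10, -0.07 and 0.06.

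Of 18 lipid droplet coat and lipolysis cofactor genes tested, 7 rose and 0 fell in tCD115- cells and 6 rose and 0 fell in nCD115- cells. That is 38.9% and 33.3%, against 8.36% and 5.73% of all genes called higher. Of those called, *Plin4*, *Plin5* and *Ces1d*, named after their values were seen, averaged at most 0.0275 CPM in either CD115+ group. They passed the low-count filter only through the CD115- groups and could hardly be called lower. The shares therefore hold genes that could go only one way, and are a description. *G0s2*, whose product inhibits adipose triglyceride lipase, had 36.8 ± 10.9 CPM in tCD115- against 1.47 ± 0.15 CPM in tCD115+ cells (log2 fold change 4.65, SE 0.26, edgeR adjusted p = 2.97e-05). In naive mice it had 26.2 ± 4.0 CPM in nCD115- cells against 1.47 ± 0.25 CPM in nCD115+ cells (log2 fold change 4.16, SE 0.25, edgeR adjusted p = 6.36e-05). *Abhd5*, whose product CGI-58 activates the same lipase, had 283 ± 70 CPM in tCD115- against 59.9 ± 3.2 CPM in tCD115+ cells (log2 fold change 2.24, SE 0.18, edgeR adjusted p = 0.000147) and 177 ± 28 CPM in nCD115- cells against 50.2 ± 3.9 CPM in nCD115+ cells (log2 fold change 1.81, SE 0.18, edgeR adjusted p = 0.000552). The inhibitor and the activator rose together beside a flat *Pnpla2*. With at least 10 counts required in every library, 3 rose in either host, and the share of all genes under that filter is not given here. Apart from *G0s2* and *Abhd5*, those called averaged 0.290 to 1.90 CPM over the 8 libraries. Among them, and named here after their values were seen, the perilipin *Plin5* had 2.09 ± 0.52 CPM in tCD115- against 0.0275 ± 0.0389 CPM in tCD115+ cells, and 0.743 ± 0.290 CPM in nCD115- cells against 0 in both nCD115+ libraries. The abundant droplet coat genes *Plin2* and *Plin3* were called in none of the 4 comparisons, with 222 ± 20 and 123 ± 17 CPM in tCD115- against 299 ± 50 and 69.8 ± 0.1 CPM in tCD115+ cells.

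Of 17 genes of glycerolipid and sterol ester synthesis tested, 2 rose and 3 fell in tCD115- relative to tCD115+ cells, and 1 rose and 0 fell in nCD115- relative to nCD115+ cells. In TB mice 29.4% were thus called, against 12.3% of all genes. The naive share, 5.88%, is near the 5.73% of all genes called higher there. *Agpat2*, which acylates lysophosphatidic acid upstream of the diglyceride acyltransferases, had 189 ± 44 CPM in tCD115- against 21.2 CPM in both tCD115+ libraries (log2 fold change 3.15, SE 0.21, edgeR adjusted p = 6.03e-05), and 130 ± 31 CPM in nCD115- cells against 24.9 ± 1.7 CPM in nCD115+ cells (log2 fold change 2.38, SE 0.20, edgeR adjusted p = 0.000252). *Lpgat1*, a lysophospholipid acyltransferase gene, rose in tCD115- cells (log2 fold change 1.19, SE 0.12, edgeR adjusted p = 0.000461). *Lpin1*, whose phosphatase product makes the diglyceride, went the other way, with 3.33 ± 1.96 CPM in tCD115- against 8.44 ± 0.38 CPM in tCD115+ cells (log2 fold change -1.34, SE 0.36, edgeR adjusted p = 0.0237) and against 15.9 ± 0.9 CPM in nCD115- cells (log2 fold change -2.25, SE 0.37, edgeR adjusted p = 0.0177). *Agpat4* (log2 fold change -1.10, edgeR adjusted p = 0.00319) and *Agpat3* (log2 fold change -1.08, edgeR adjusted p = 0.0132) fell in tCD115- relative to tCD115+ cells too. The count of 3 became 0 without tCD115- replicate 1 and 1 without either tCD115+ library, and the host call of *Lpin1* was lost without either nCD115- library. In both host comparisons *Soat2*, a sterol acyltransferase gene named here after its values were seen, rose, with 3.71 ± 1.20 CPM in tCD115- against 1.17 ± 0.18 CPM in nCD115- cells and 5.18 ± 0.76 CPM in tCD115+ against 1.47 ± 0.35 CPM in nCD115+ cells. Its calls were lost without either nCD115- library in CD115- cells, and without any one of the 4 libraries compared in CD115+ cells.

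Of 16 genes of fatty acid uptake, binding and activation tested, 3 rose and 3 fell in tCD115- relative to tCD115+ cells, and 3 rose and 0 fell in nCD115- relative to nCD115+ cells. In TB mice 37.5% were thus called, against 12.3% of all genes. In naive mice 18.8% were called higher, against 5.73% of all genes. *Ffar2*, a receptor of short-chain fatty acids, had 73.1 ± 24.8 CPM in tCD115- against 1.22 ± 0.23 CPM in tCD115+ cells (log2 fold change 5.89, SE 0.30, edgeR adjusted p = 2.33e-05) and 50.3 ± 10.6 CPM in nCD115- cells against 0.735 ± 0.026 CPM in nCD115+ cells (log2 fold change 6.10, SE 0.31, edgeR adjusted p = 3.02e-05). *Acsl1*, which activates long-chain fatty acids with coenzyme A, had 268 ± 32 CPM in tCD115- against 103 ± 4 CPM in tCD115+ cells and 219 ± 28 CPM in nCD115- cells against 103 ± 1 CPM in nCD115+ cells, and rose in both (log2 fold changes 1.37 and 1.09, edgeR adjusted p = 0.000178 and 0.000755). The transporter gene *Slc27a4* rose in both as well (log2 fold changes 1.36 and 1.09, edgeR adjusted p = 0.000779 and 0.0035). *Fabp5*, a fatty acid binding protein gene, fell in tCD115- cells, to 30.6 ± 7.6 CPM, against 64.9 ± 1.1 CPM in tCD115+ cells (log2 fold change -1.08, SE 0.21, edgeR adjusted p = 0.00734). The scavenger receptor gene *Cd36*, named here after its values were seen, fell in TB mice, to 0.897 ± 0.292 CPM in tCD115- against 3.55 ± 0.19 CPM in nCD115- cells and to 1.60 ± 0.30 CPM in tCD115+ against 3.79 ± 0.80 CPM in nCD115+ cells. Without nCD115- replicate 2 the 3 genes that rose in naive mice were 1, and *Cd36* was lost in CD115- cells without either nCD115- library and in CD115+ cells without any one of 6 libraries, all but those of tCD115-.

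Of 22 fatty acid oxidation genes tested, 1 fell in tCD115- relative to tCD115+ cells and 1 in tCD115- relative to nCD115- cells, in both cases *Cpt1c*, named here after its values were seen, at 0 in both tCD115- libraries against 0.101 ± 0.071 CPM in tCD115+ and 0.161 ± 0.041 CPM in nCD115- cells. This share, 4.55%, is near that of all genes called lower, 3.97% and 2.43%. The first of these calls was lost without tCD115- replicate 1, tCD115+ replicate 2, nCD115- replicate 1 or nCD115+ replicate 1, and the second without any one library but tCD115- replicate 2. In the other comparisons 0 of 22 were called. Of 14 lipid-sensing transcription factor genes tested, 1 fell in tCD115- relative to tCD115+ cells, *Foxo1*, with 10.3 ± 3.3 CPM against 24.1 ± 0.8 CPM (log2 fold change -1.23, SE 0.19, edgeR adjusted p = 0.00286), and 0 were called in nCD115- relative to nCD115+ cells. This share, 7.14% in TB mice, stands against 3.97% of all genes called lower. *Pparg* and *Mlxipl*, named here after their values were seen, fell in both host comparisons. They make up 14.3% of the list in each, against 2.43% and 1.66% of all genes called lower. *Pparg*, which encodes a nuclear receptor for fatty acids, had 0.857 ± 0.047 CPM in tCD115- against 2.32 ± 0.58 CPM in nCD115- cells and 1.68 ± 0.53 CPM in tCD115+ against 4.53 ± 0.30 CPM in nCD115+ cells. In tCD115- relative to tCD115+ cells the count was 0 without tCD115- replicate 1, 4 without tCD115- replicate 2 and 2 without either tCD115+ library. Of the 2 host calls, 0 were left in CD115- cells without either nCD115- library, 1 without either nCD115+ library and 4 were called without tCD115- replicate 2, and 0 were left in CD115+ cells without any one of the 4 libraries compared.

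Among 16 lipase partners and related lipases tested, 1 rose and 2 fell in tCD115- relative to tCD115+ cells, 0 were called in nCD115- relative to nCD115+ cells, 3 fell in tCD115- relative to nCD115- cells and 1 fell in tCD115+ relative to nCD115+ cells. In that order, 18.8%, 0%, 18.8% and 6.25% were called, against 12.3%, 6.21%, 3.29% and 2.6% of all genes. *Apoe*, the lipoprotein ligand of lipid-laden macrophages, had 86.2 ± 7.4 CPM in tCD115- against 338 ± 8 CPM in nCD115- cells (log2 fold change -1.97, SE 0.24, edgeR adjusted p = 0.00811) and 189 ± 67 CPM in tCD115+ against 498 ± 97 CPM in nCD115+ cells (log2 fold change -1.40, SE 0.23, edgeR adjusted p = 0.0177). It also fell in tCD115- relative to tCD115+ cells (log2 fold change -1.14, SE 0.23, edgeR adjusted p = 0.00829). *Lmf1*, whose product folds lipoprotein lipase and endothelial lipase in the endoplasmic reticulum, fell in tCD115- cells, to 12.8 ± 3.0 CPM, against 26.9 ± 1.5 CPM in nCD115- cells (log2 fold change -1.07, SE 0.15, edgeR adjusted p = 0.0123). *Lmf1* and *Lpl* thus fell in the same comparison in which *Lipg* was higher. The counts between tCD115- and nCD115- cells became 0 without tCD115- replicate 1 or nCD115- replicate 1, that between tCD115+ and nCD115+ cells 0 without tCD115+ replicate 2 or either nCD115+ library, and that of genes lower in tCD115- than in tCD115+ cells 1 without tCD115- replicate 1 or tCD115+ replicate 1, while the gene that rose there was lost without tCD115+ replicate 2.

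**Figure D4:**
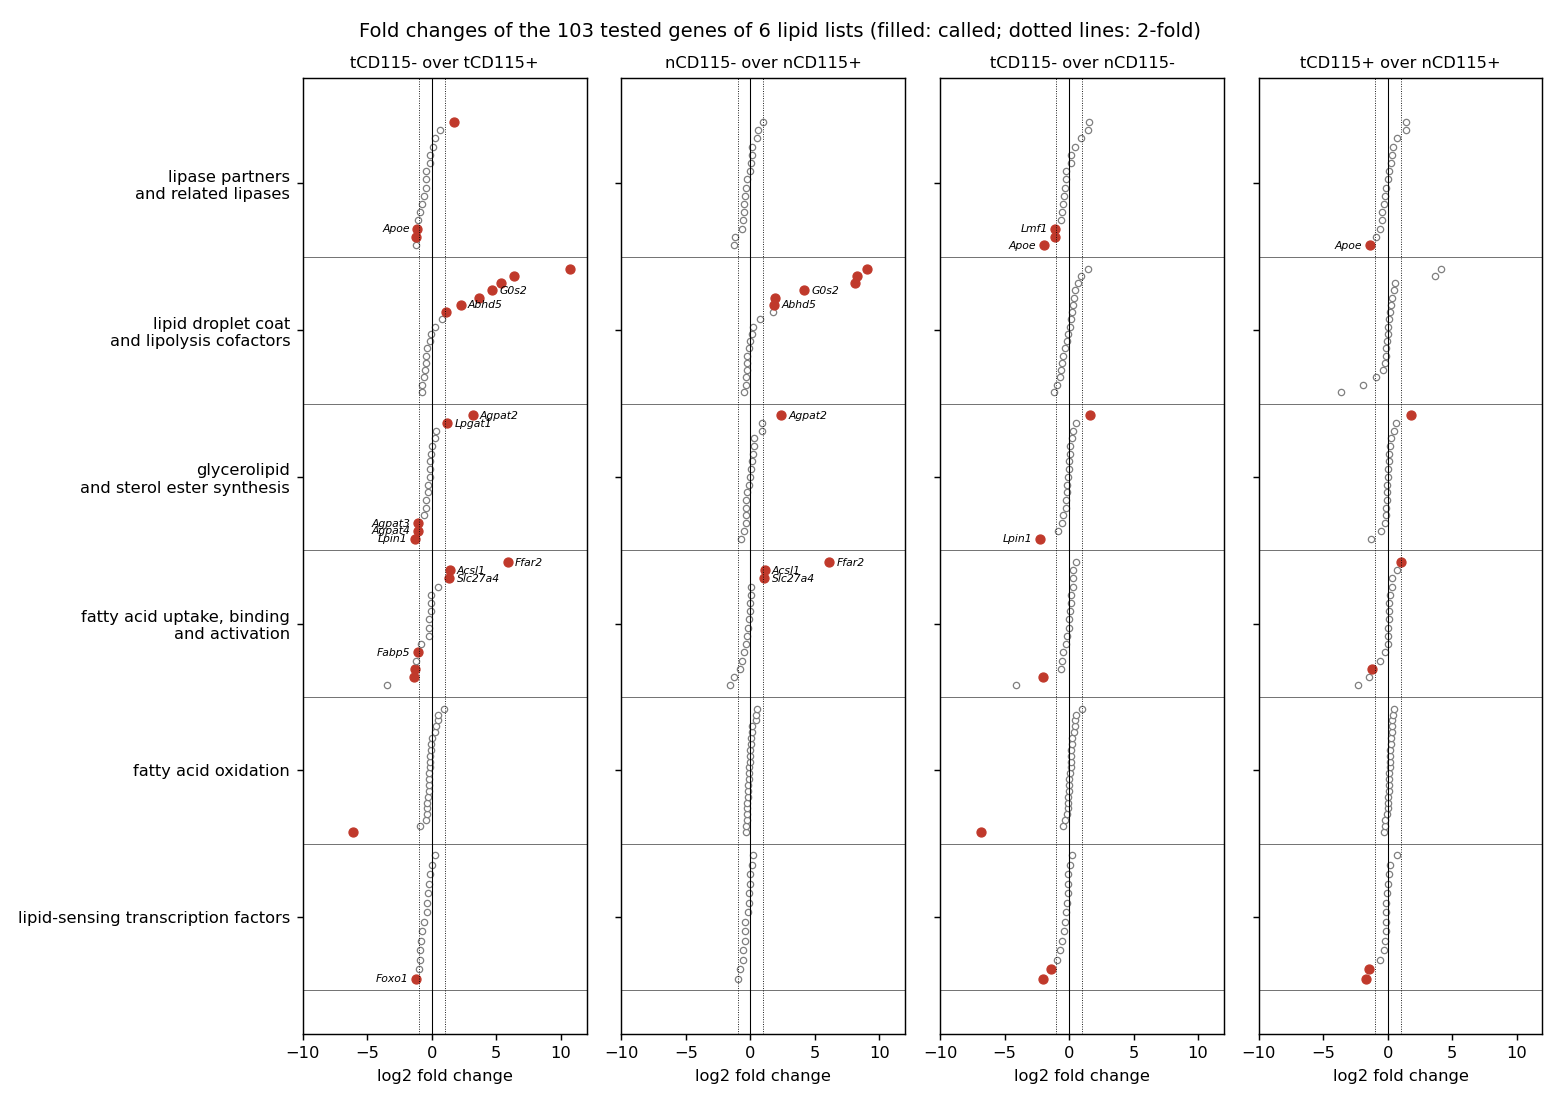
Log2 fold changes (edgeR) of the 103 tested genes of 6 lipid lists, 1 point per gene, in the 4 comparisons. Filled points passed both thresholds, and gene names mark those at 5 CPM or more on average. The droplet list has 7 and 6 called genes on the right side of the subset panels and 0 in the host panels.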

How the data were processed

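Total RNA of the sorted cells was made into stranded mRNA libraries, 2 per group and 8 in all. The authors deposited unnormalized read counts per gene, in whole numbers, and FPKM values (scaled to gene length and library size by the authors), which served only to compare levels between genes. The submitters' processing notes name HISAT2 (2.0.5), StringTie (1.3.3b) and mm10. How counting treated strand and reads of several genes is not stated in the sources used here. The authors' comparison columns (fold changes, mean signal, statistics and p-values) were left out, as were 12 other columns with values of samples or groups. Groups came from the sample titles.

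Counts were analyzed with R 4.3.3 and edgeR 4.0.16. Genes with low counts were removed with filterByExpr, and TMM factors (edgeR's default) scaled the libraries. A robust quasi-likelihood model with 1 mean per group was fitted to all 8 libraries, which leaves 4 residual degrees of freedom (median prior 3.65), and p-values were adjusted (Benjamini-Hochberg) over 13211 of 16160 genes. All log2 fold changes and adjusted p-values come from this test unless another tool is named. The pipeline was tested on simulated data. With 2 libraries against 2, an exact permutation test cannot go below p = 0.333 (2-sided) and was not run. Counting intervals (95%, exact) cover counting error only. The 16 alternatives were DESeq2 (1.42.0), limma-voom (limma 3.58.1), DESeq2 size factors, library totals alone, no filter on low counts, at least 10 counts in every library, only the 4 libraries compared, a replicate block, and each library left out. No library looked like a repeat of another.

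Members and lists were chosen with earlier results of these data known. Named are the 9 genes, up to 3 called genes per pathway list, comparison and direction with the largest change at a mean of at least 5 CPM, the 5 genes most like *Lipg* and *Mogat2*, and marker lists as sums. Gene IDs of all 9 genes matched RefSeq (GRCm38). RefSeq promoters were at hand for *Lipa*, *Lipe*, *Pnpla2* and *Mgll*. Figures were drawn with Python 3.11.15 and matplotlib 3.10.9.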

Additional observations from a re-analysis of the deposited data

How the results depend on the processing

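Over all alternatives, the calls of *Mgll*, *Dgat1* and *Dgat2* between subsets, and that of *Mogat2* in TB mice, kept direction and threshold wherever they could be tested. A minimum of 10 counts in every library removes *Lipg* and *Mgll*, so 3 members were called higher between the subsets of either host and 1 in tCD115- over nCD115-. DESeq2 and the 4 compared libraries alone each called 2 members higher in tCD115+ over nCD115+, and the 4 libraries alone called 1 higher and 0 lower in tCD115- over nCD115-. Leaving out 1 library gave 1 to 2 members higher in tCD115- over nCD115-, and 0 to 1 higher and 0 to 1 lower in tCD115+ over nCD115+. With 2 libraries per group, a left-out library leaves a lone one, assumed to vary like the other groups. The reads of *Lipg* in nCD115+ cells limit its fold changes there.

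Counts over all genes moved more. Leaving out 1 library gave 196 to 1127 genes lower in tCD115- over tCD115+, 492 to 832 higher and 8 to 94 lower in nCD115- over nCD115+, 8 to 243 higher and 28 to 816 lower in tCD115- over nCD115-, 14 to 173 higher and 27 to 315 lower in tCD115+ over nCD115+, and 0 to 60 higher and 0 to 113 lower for the difference between the subset effects. Library totals alone gave 840 lower in tCD115- over tCD115+ and 103 lower in nCD115- over nCD115+. The 4 compared libraries alone gave 255 lower in tCD115- over tCD115+, and 13 higher and 23 lower in tCD115- over nCD115-. DESeq2 gave 172 higher in tCD115- over nCD115-, and 56 higher and 12 lower for the difference between subset effects, where no filter gave 3 and 1. The cause was not tested.

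Same-numbered libraries did not deviate together (correlations of -0.10 to 0.08 between groups, over 13211 genes). With 2 libraries per group, this cannot decide whether same-numbered libraries came from the same mice, and the sources used here do not say. With a replicate block, 1062 genes were higher and 528 lower in tCD115- over tCD115+, 712 and 52 in nCD115- over nCD115+, 89 and 288 in tCD115- over nCD115-, and 106 and 189 in tCD115+ over nCD115+, and no member's call changed.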
